A study of Mus musculus with 16 samples.

Results

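Beta-cell disallowed genes are housekeeping or widely expressed genes that pancreatic beta cells keep at a low level. Signals of 30 of them were compared between islets of Insm1 mutant and control mice. Insm1 encodes a transcription factor with zinc fingers that endocrine cells express. The members were a list of mouse genes commonly counted as disallowed, and each was found in the platform annotation as the only gene named by a probe set. Of the 30 genes, 30 were measured, among 18193 genes in all, and each was read from its brightest probe set on average over the 16 arrays. Total RNA of isolated pancreatic islets was hybridised to Affymetrix Mouse Genome 430 2.0 arrays, 1 array per preparation, from 8 mutant and 8 control mice. The mutants were RIPcreER; Insm1flox/lacZ and the controls RIPcreER; Insm1flox/+, so both groups carried a tamoxifen-inducible recombinase driven by the rat insulin promoter and a floxed Insm1 allele. The lacZ allele was present in the mutants in all cells, while recombination was directed to beta cells. Every mouse, of mixed C57BL/6, CBA/J and 129/ola ancestry, was given 25 mg tamoxifen in a 21-day release form at 4 to 5 weeks of age, and its islets were taken at 8 to 12 weeks. The controls were litter-matched and kept 1 wild-type allele, so they are no model of intact Insm1.

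Beta cells couple insulin release to glucose through mitochondrial oxidation of pyruvate. Lactate dehydrogenase A and the monocarboxylate transporter MCT1 would let pyruvate and lactate from outside the cell, for example from working muscle, drive insulin release, and both are kept low in mature beta cells. Other disallowed genes encode enzymes, matrix proteins and signalling proteins that most tissues express. Their silencing is known to involve DNA methylation, histone methylation by Polycomb and microRNAs. Many of these genes are abundant in the other cells of an islet preparation, such as leukocytes, fibroblasts, endothelial and acinar cells, and an array of whole islets cannot tell fewer or more such cells from less or more RNA per cell. Probe sets differ in brightness, so levels were compared between groups and not between genes, and whether the 30 genes were low in beta cells could not be checked on these arrays.

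The medians of the arrays spanned 6.29 to 6.35 (log2), and with 8 arrays in each group precision is limited by their number. Insm1 read 11.02 ± 0.22 in mutants and 11.26 ± 0.23 in controls (SD, n = 8 each), a difference of −0.25 ± 0.11 (SE, limma adjusted p = 0.182). It was lower in the mutant in 5 pairs and higher in 3 (pairs 6, 7 and 8), and where its probes lie relative to the deleted part was not analysed here. Of 16 measured beta-cell identity genes 7 fell and 0 rose, among them the peptide hormone gene Ucn3 (−1.37 ± 0.15), the GLP-1 receptor gene Glp1r (−1.08 ± 0.15) and the glucose transporter gene Slc2a2 (−0.89 ± 0.15; SE, limma adjusted p = 1.79e-05, 0.000125 and 0.000827). The mean of 27 immune-cell markers ranged from 6.73 to 9.27 in mutants and 6.74 to 8.21 in controls, with mutant replicates 1 and 3 and control replicate 1 highest, and 0 of the 27 were called. Acinar markers ranged from 8.37 to 13.17 in mutants and 11.37 to 13.68 in controls with the mutant array lower in each of the 8 pairs. Of the other marker means, stromal cells ranged from 7.93 to 8.81 in mutants and 7.73 to 8.32 in controls, endothelial cells from 8.20 to 8.78 in mutants and 8.52 to 8.84 in controls, and alpha cells from 11.15 to 11.64 in mutants and 10.63 to 10.99 in controls.

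Of the 30 genes 6 rose in mutant islets and 0 fell (limma, adjusted p under 0.05 over all genes), where 4.1% of all 18193 genes were called higher and 4.66% lower. The 6 were Hsd11b1, Tgm2, Cd302, Pcolce, Selenbp1 and Fcgrt, with rises of 1.22-fold to 1.67-fold. The median difference of the 30 was 0.28 on the log2 scale, against −0.01 over all genes, and 23 differences lay above 0 and 7 below. The 30 were chosen with earlier results of these data known, so setting them beside all genes is no independent test. At an unadjusted p under 0.05, limma gave 12 of the 30. The share of all genes at that unadjusted limit was not counted, so the 12 cannot be set against it. Same-numbered arrays of the groups deviated together, so the numbers were also used as pairs. With the replicate block 11 of the 30 rose and 0 fell, where 7.88% of all genes were called higher and 9.71% lower, and the genes added were Slc16a1, Oat, Igfbp4, Tst and Lmo4. By role, the calls were 2 of 9 metabolic enzymes and transporters, 2 of 7 secreted and matrix proteins, 2 of 3 receptors, 0 of 6 nuclear and RNA-binding proteins and 0 of 5 cytoskeletal and signalling proteins. For the last of these groups 0 of 5 were called with the replicate block as well, and for the nuclear group 1 of 6.

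**Figure D1:**
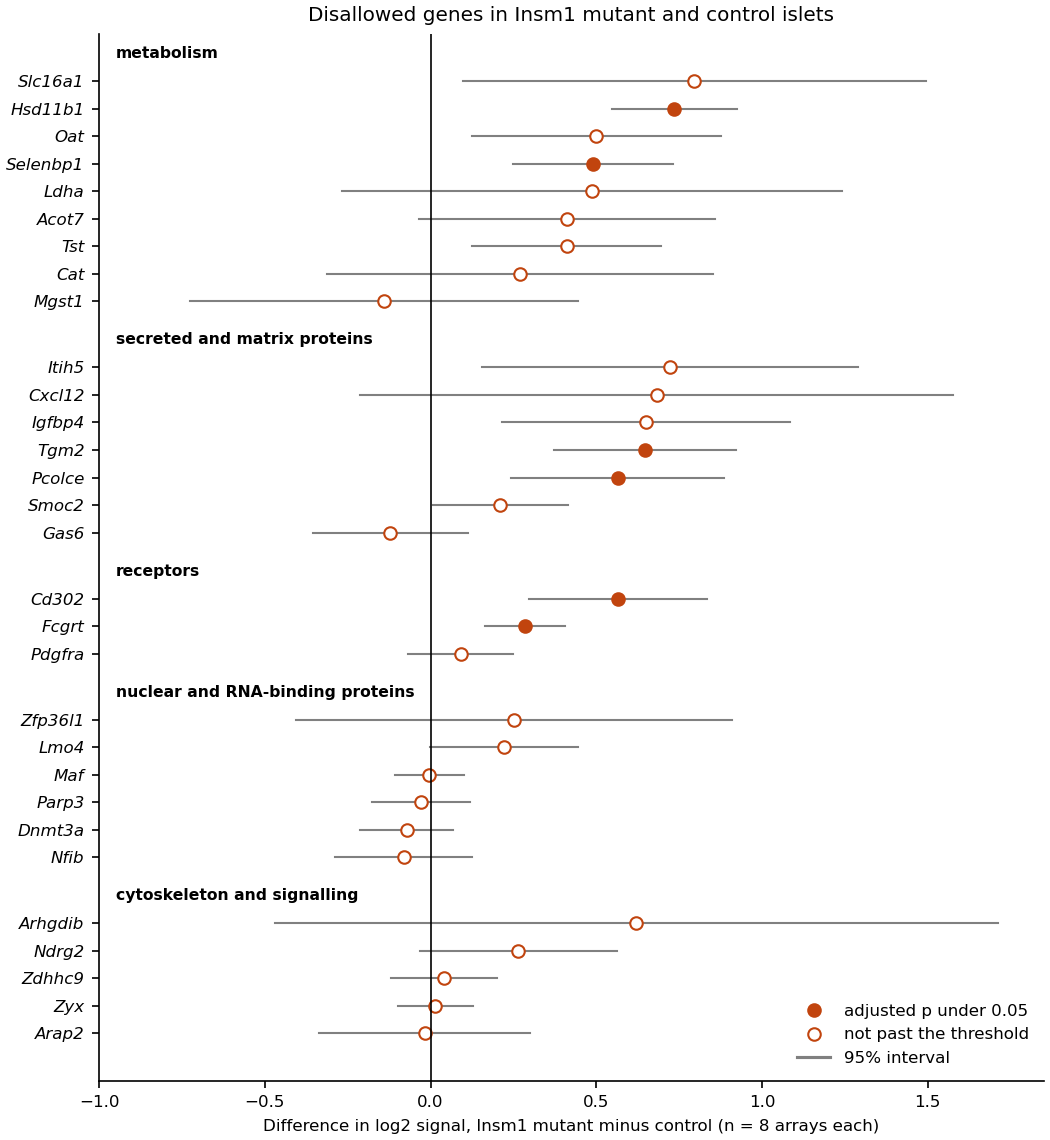
Difference in log2 signal, Insm1 mutant minus control, for each of the 30 disallowed genes by role (points, filled where the limma adjusted p was under 0.05; lines, 95% intervals; n = 8 arrays per group). The 6 filled points lie between 0.28 and 0.74, and no gene has a filled point below 0.

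Promoter sequences are printed for the 4 called genes with the largest differences that had a window in the RefSeq table of GRCm38.p6, and for Ldha and Slc16a1, the best known pair of the set. Each window runs 5′ to 3′ on the strand of its gene, from 250 bases before the annotated start to 50 after it. Capitals mark matches on either strand to 3 short motifs, AGGGGGC (core of the Insm1 site), TGTTTAC (forkhead type, bound by Foxa2) and CAGATG (the E-box type bound by Neurod1), none of which overlap here.
Hsd11b1, chr1:193242311-193242610, minus strand: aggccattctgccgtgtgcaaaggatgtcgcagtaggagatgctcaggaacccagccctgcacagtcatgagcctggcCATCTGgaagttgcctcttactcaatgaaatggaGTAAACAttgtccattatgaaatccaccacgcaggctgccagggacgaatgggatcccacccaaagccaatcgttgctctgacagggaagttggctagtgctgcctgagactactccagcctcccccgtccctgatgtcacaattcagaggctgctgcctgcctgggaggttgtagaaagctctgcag
Cd302, chr2:60284435-60284734, minus strand: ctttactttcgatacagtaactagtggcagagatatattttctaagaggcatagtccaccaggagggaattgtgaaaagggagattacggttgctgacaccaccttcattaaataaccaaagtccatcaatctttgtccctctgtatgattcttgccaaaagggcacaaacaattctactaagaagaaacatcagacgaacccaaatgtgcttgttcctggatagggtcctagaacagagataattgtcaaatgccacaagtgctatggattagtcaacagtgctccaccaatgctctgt
Pcolce, chr5:137611355-137611654, minus strand: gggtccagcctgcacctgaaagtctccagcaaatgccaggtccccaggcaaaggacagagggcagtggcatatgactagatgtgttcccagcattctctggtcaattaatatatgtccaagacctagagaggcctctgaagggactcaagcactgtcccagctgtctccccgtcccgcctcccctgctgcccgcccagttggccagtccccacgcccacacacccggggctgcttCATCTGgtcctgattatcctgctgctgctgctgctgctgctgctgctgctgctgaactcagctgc
Selenbp1, chr3:94932833-94933132, plus strand: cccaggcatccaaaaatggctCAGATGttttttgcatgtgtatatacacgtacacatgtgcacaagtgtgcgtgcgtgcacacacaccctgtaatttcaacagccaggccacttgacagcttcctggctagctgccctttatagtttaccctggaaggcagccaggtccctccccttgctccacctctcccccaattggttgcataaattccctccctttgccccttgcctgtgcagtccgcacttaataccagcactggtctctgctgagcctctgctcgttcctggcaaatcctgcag
Ldha, chr7:46845554-46845853, plus strand: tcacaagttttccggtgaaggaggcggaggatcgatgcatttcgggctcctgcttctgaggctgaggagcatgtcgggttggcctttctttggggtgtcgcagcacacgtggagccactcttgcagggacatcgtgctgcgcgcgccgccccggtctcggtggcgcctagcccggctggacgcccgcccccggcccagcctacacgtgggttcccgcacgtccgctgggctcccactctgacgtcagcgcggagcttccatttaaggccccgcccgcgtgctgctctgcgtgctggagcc
Slc16a1, chr3:104638414-104638713, plus strand: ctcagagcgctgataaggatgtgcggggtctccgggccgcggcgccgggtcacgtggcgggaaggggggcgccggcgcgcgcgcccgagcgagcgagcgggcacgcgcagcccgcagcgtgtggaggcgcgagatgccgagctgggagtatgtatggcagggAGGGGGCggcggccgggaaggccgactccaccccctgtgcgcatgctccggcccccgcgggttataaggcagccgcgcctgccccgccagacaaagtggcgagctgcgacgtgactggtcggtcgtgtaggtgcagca
The Hsd11b1 window held a forkhead match starting 138 bases and an E-box match starting 172 bases before the start, both on the opposite strand. In Pcolce and Selenbp1 the E-box match started 15 and 229 bases before it, and in Slc16a1 the Insm1 core started 88 bases before it. The Cd302 and Ldha windows held no match to these letters, and for Ldha the farther upstream of its 2 windows is shown. Over the 25 members with a window, AGGGGGC was found in 4 genes (Dnmt3a, Igfbp4, Itih5 and Slc16a1), TGTTTAC in 3 (Fcgrt, Hsd11b1 and Ndrg2) and CAGATG in 6 (Gas6, Hsd11b1, Igfbp4, Pcolce, Pdgfra and Selenbp1). The 25 members had 35 windows, and a gene was counted when any of its windows held the motif. Of all 32851 single windows 10.6%, 3.65% and 17.2% held these motifs. Counts by gene and shares by window are unlike units, so the members cannot be compared with all windows here. These matches describe the letters of the windows, and no binding was measured here.

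Among the metabolic enzymes, Hsd11b1 had the smallest adjusted p of the 30 genes. It encodes the reductase that makes active glucocorticoid inside cells. Its log2 signal was 8.14, 8.39 and 8.85 in mutant islets (lowest, median and highest of 8 arrays), against 7.54, 7.73 and 7.82 in control islets. All 8 mutant arrays lay above all 8 control arrays. The rise was 1.67-fold (0.74 ± 0.09, SE, limma adjusted p = 4.91e-05). Selenbp1, a selenium-binding methanethiol oxidase, read 6.89, 7.16 and 7.76 in mutants, against 6.53, 6.71 and 6.98 in controls. The groups overlapped in 1 mutant array, and the mutant was higher in 8 of 8 pairs, a 1.41-fold rise (limma adjusted p = 0.0105). This probe set carries the suffix _s_at, which marks probes shared by related transcripts, and the mean of both Selenbp1 probe sets was not called (0.43, limma adjusted p = 0.0703).

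Slc16a1 and Ldha, the classical pair, did not pass the threshold with genotype as the only term. Slc16a1, which encodes MCT1, read 4.97, 5.88 and 7.58 in mutants, against 4.63, 5.14 and 6.47 in controls. The groups overlapped widely, with mutant replicates 1 and 3 highest, and the mean over all arrays lay below the lowest array median, where background compresses differences. The mutant array was nevertheless the higher one in 8 of 8 pairs, and the difference of 0.80 ± 0.33 (SE, limma adjusted p = 0.163) passed the threshold once pairs were a block (± 0.15, adjusted p = 0.00417), also in that fit without pairs 1 to 3 (0.59, adjusted p = 0.0227). A second, much dimmer Slc16a1 probe set differed by −0.09, and the mean of both by 0.35 (limma adjusted p = 0.25). Ldha, lactate dehydrogenase A, read 7.56, 8.26 and 10.39 in mutants, against 7.38, 8.00 and 9.09 in controls. Its highest arrays were mutant replicates 1 and 3 and control replicate 1, in that order. The difference of 0.49 had a 95% interval of −0.27 to 1.24 (limma adjusted p = 0.491, and 0.142 with the replicate block).

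Oat, the mitochondrial ornithine aminotransferase, and Tst, the sulfurtransferase rhodanese, were called with the replicate block but not with genotype as the only term. Oat read 8.34, 8.67 and 9.51 in mutants, against 7.68, 8.26 and 8.80 in controls, and Tst 6.47, 6.94 and 7.38 in mutants, against 6.13, 6.44 and 7.09 in controls. Both sets of groups overlapped, with 3 mutant arrays above the highest control for each gene. The difference of Oat was 0.50 (higher in 8 of 8 pairs, limma adjusted p = 0.0984, 0.0118 with the block) and that of Tst 0.41 (higher in 7 of 8, 0.0718 and 0.0494), and Tst was also called without mutant replicate 7 (0.0323) or control replicate 2 (0.0197). Cat, which encodes the peroxide-degrading enzyme catalase, read 7.61, 7.79 and 9.64 in mutants, against 7.42, 7.64 and 8.88 in controls, so that 7 of 8 mutant arrays lay within the control range. Differences of the remaining enzymes were 0.41 for the acyl-CoA thioesterase gene Acot7 and −0.14 for the microsomal glutathione transferase gene Mgst1, with 95% intervals of −0.04 to 0.86 and −0.73 to 0.44.

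Tgm2, a transglutaminase that cross-links proteins, led the secreted and matrix group by its adjusted p. It read 8.54, 8.79 and 9.72 in mutants, against 8.08, 8.30 and 8.50 in controls. The groups did not overlap, and mutant replicate 3 stood above the other mutants. The rise was 1.57-fold (0.65 ± 0.13, SE, limma adjusted p = 0.00417), and 2 of its 6 probe sets were called higher and 0 lower when every probe set was tested. The probe set used has the suffix _x_at, which marks possible cross-hybridisation. Pcolce, an enhancer of procollagen processing, read 6.53, 7.14 and 7.56 in mutants, against 6.22, 6.44 and 7.07 in controls. Of its mutant arrays 5 lay above the highest control, and the 1.48-fold rise (limma adjusted p = 0.0263) was no longer called without mutant replicate 2 or 3 or without control replicate 3, 5, 6 or 8 (highest adjusted p 0.0565). A second Pcolce probe set, nearly as bright, differed by 0.24 (limma adjusted p = 0.283 over probe sets), and the mean of both was not called (0.40, adjusted p = 0.0706).

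Igfbp4, which binds insulin-like growth factors, read 8.33, 9.11 and 9.97 in mutants, against 8.18, 8.56 and 8.90 in controls. Mutant replicate 1 lay below 5 controls, while 6 mutant arrays lay above all of them. The 1.57-fold difference was just short of the threshold (limma adjusted p = 0.0599), and within it with the replicate block (0.0497) and without mutant replicate 1 (0.0154) or 6 (0.0429). Its 6 probe sets differed by 0.05 to 0.65, the one used most, and 0 were called when every probe set was tested. The mean of all 6 differed by 0.33 (limma adjusted p = 0.123). Itih5, a hyaluronan-associated inhibitor family member, was higher in 8 of 8 pairs by 0.72 without passing the test (limma adjusted p = 0.115, 0.0694 with the block). The chemokine gene Cxcl12 differed by 0.68 with a 95% interval of −0.21 to 1.58, mutant replicate 3 reading 10.26 and the other 7 mutants at most 7.56. Smoc2, a matricellular protein, and Gas6, a ligand of TAM receptor kinases, differed by 0.21 and −0.12, neither called.

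Among the receptors, Fcgrt, the neonatal Fc receptor that recycles IgG and albumin, had the smaller rise and the tighter groups. It read 7.19, 7.30 and 7.38 in mutants, against 6.83, 7.03 and 7.14 in controls, and the groups did not overlap. The rise was 1.22-fold (0.28 ± 0.06, SE, limma adjusted p = 0.00417), with adjusted p = 0.0935 without pairs 1 to 3. Cd302, a C-type lectin receptor of myeloid and liver cells, read 5.88, 6.29 and 6.87 in mutants, against 5.30, 5.75 and 6.00 in controls. Both groups lay near or below the array medians, 6 mutant arrays exceeded the highest control, and the rise was 1.48-fold (limma adjusted p = 0.00861). For the platelet-derived growth factor receptor gene Pdgfra the probe sets disagreed. The brightest differed by 0.09 (95% interval −0.07 to 0.25), whereas another, almost as bright, read 5.92 ± 0.62 in mutants and 5.05 ± 0.34 in controls (SD, n = 8 each) and was called higher by 0.87 (limma adjusted p = 0.0263 over 34945 probe sets, of which 3.24% were called higher and 3.62% lower). The mean of the 3 Pdgfra probe sets was called higher too (0.37, limma adjusted p = 0.0268), where 695 of 18193 genes were called higher and 780 lower. The mutant array was higher in 8 of 8 pairs for 7 of the 30 genes (5.79% of all genes were higher and 7.21% lower in every pair). Non-overlapping groups, with all mutants higher, were seen for 3 of the 30 genes and for 1.19% of all genes.

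**Figure D2:**
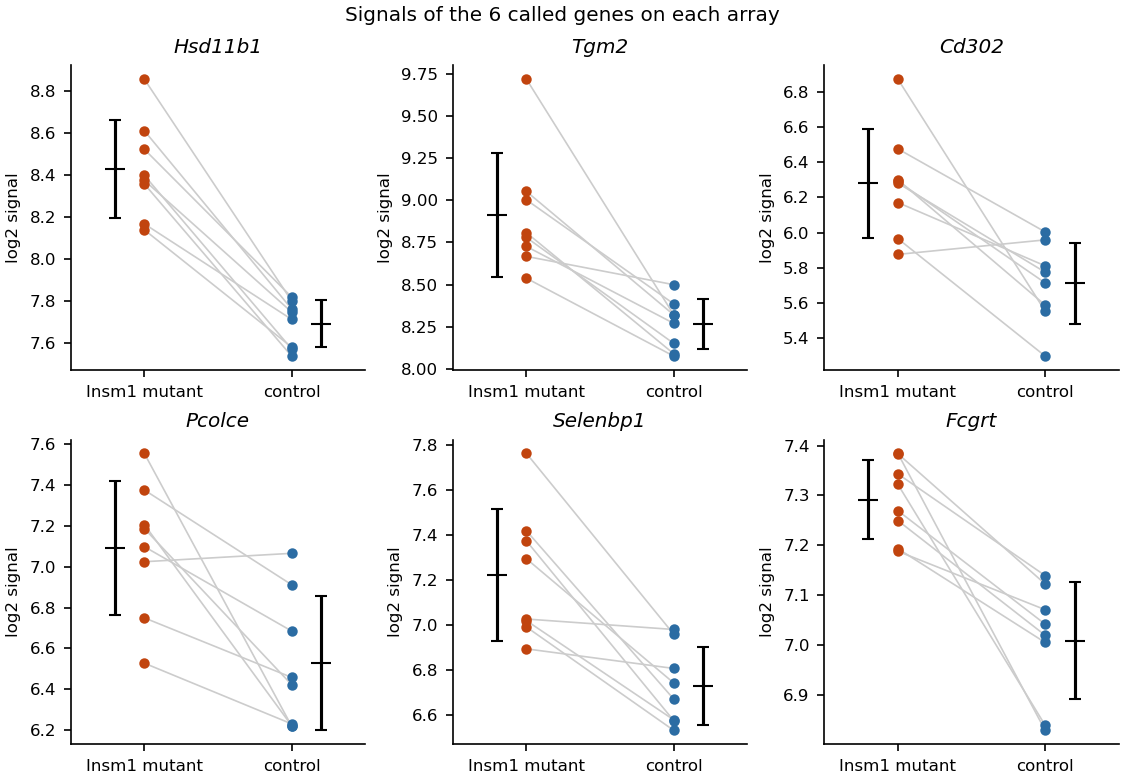
Log2 signal of Hsd11b1, Tgm2, Cd302, Pcolce, Selenbp1 and Fcgrt on each array of Insm1 mutant (left) and control (right) islets, with grey lines joining arrays of the same replicate number and black bars for mean ± SD (n = 8 each). For Hsd11b1, Tgm2 and Fcgrt the lowest mutant array lies above the highest control array, and for Cd302, Pcolce and Selenbp1 the groups overlap; axes do not start at 0.

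Lmo4, a LIM-only transcriptional cofactor, was the 1 nuclear gene called with the replicate block, and 0 of 6 were called without it. It read 6.67, 7.10 and 7.42 in mutants, against 6.58, 6.94 and 7.09 in controls, so the groups overlapped, and the difference was 0.22 (higher in 7 of 8 pairs, limma adjusted p = 0.24, 0.0402 with the block). Zfp36l1, which promotes decay of mRNAs with AU-rich elements, read 8.31, 8.78 and 10.68 in mutants, against 8.25, 8.76 and 9.90 in controls, nearly the same medians with a high mutant replicate 1. On their brightest probe sets the remaining nuclear genes gave differences close to 0. Dnmt3a, the de novo DNA methyltransferase known to repress Ldha in beta cells, differed by −0.07 (95% interval −0.21 to 0.07, limma adjusted p = 0.604). A dimmer Dnmt3a probe set fell by 0.18 on the log2 scale (limma adjusted p = 0.0373 over probe sets), and all 5 of its probe sets had negative differences. Maf, a leucine zipper factor, differed by less than 0.01 in size (95% interval −0.11 to 0.10), the nuclear factor I gene Nfib by −0.08 and the ADP-ribosyltransferase gene Parp3 by −0.03. The 6 Maf probe sets disagreed, with 0 called. Dimmer ones differed by 0.08 to 0.73 (limma adjusted p 0.103 to 0.824 over probe sets), and the mean of all 6 by 0.27 (adjusted p = 0.321).

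In the cytoskeletal and signalling group the values of most genes hardly differed. Zyx, a focal adhesion protein, read 6.90, 7.13 and 7.26 in mutants, against 6.99, 7.13 and 7.18 in controls, with the lowest array and the 2 highest arrays all mutant and the medians alike. The Zyx probe set used has the suffix _x_at, and a dimmer one differed by 0.19 ± 0.06 (SE, limma adjusted p = 0.0838 over probe sets). The palmitoyltransferase gene Zdhhc9 and the Arf GTPase regulator gene Arap2 differed by 0.04 and −0.02, with 95% intervals of −0.12 to 0.20 and −0.34 to 0.30. Ndrg2, an N-myc downstream-regulated gene, differed by 0.27 (limma adjusted p = 0.3). Arhgdib, a GTPase regulator typical of leukocytes, read 6.996, 7.42 and 10.84 in mutants, against 6.997, 7.36 and 9.39 in controls. Its medians differed little while 4 arrays (mutant replicates 1, 3 and 2 and control replicate 1) stood above the rest. Over all roles, 10 genes differed by less than 0.15 in size on their brightest probe sets (Mgst1, Gas6, Pdgfra, Maf, Nfib, Dnmt3a, Parp3, Zyx, Arap2 and Zdhhc9), and apart from Mgst1 and Arap2 their 95% intervals lay between −0.35 and 0.25. Other probe sets of Pdgfra, Maf and Zyx differed by up to 0.87, 0.73 and 0.19, and those of Dnmt3a and Nfib by as much as −0.25 and −0.17.

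Of the 30 disallowed genes, 8 followed the immune-cell signal of the arrays and 6 rose in the mutant, with no gene in both sets. Variation along the immune-cell signal stays in the error of the genotype-only fit, so steep slopes make a call there less likely. Standard errors of the genotype difference were 0.15 to 0.52 for the 8 and 0.06 to 0.15 for the 6. The lack of overlap is therefore no separate result, and the overlap over all genes was not counted. By the genotype calls with the replicate block, Slc16a1 was in both sets. The slope of each gene on the immune-cell mean was estimated in a limma fit that also held genotype. The 8 slopes past the threshold were positive, with 0 negative, where 4.71% of all genes were called positive and 2.61% negative. Arhgdib had the steepest, 1.45 ± 0.07 log2 units per log2 unit of the immune-cell mean (SE, limma adjusted p = 4.16e-10). Ldha followed with 0.91 ± 0.11 (adjusted p = 4.34e-05), Cxcl12 with 0.86 ± 0.21 (0.0162), Slc16a1 with 0.82 ± 0.12 (0.000154) and Zfp36l1 with 0.77 ± 0.11 (0.000183). The Cxcl12 slope was 0.47 without mutant replicate 3 and 1.36 without mutant replicate 1, called both times. The others were Cat, Mgst1 and Arap2, with slopes of 0.68, 0.53 and 0.35. The 6 genes called for genotype had slopes from 0.02 to 0.17 (limma adjusted p 0.256 to 0.846), but without mutant replicate 1 Tgm2 had a called slope of 0.37 (adjusted p = 0.00541). Itih5 (0.75) and Igfbp4 (0.50) also had called slopes without that array (0.0128 and 0.00864), Lmo4 had one without mutant replicate 5 or control replicate 6 (0.0312 and 0.0295), and Mgst1 lost its own without mutant replicate 3, 5 or 7 or control replicate 1 (highest adjusted p 0.131). The slopes rest on few arrays. Without pairs 1 to 3 limma called 0 slopes over all 18193 genes, 939 of them having an unadjusted p under 0.05, and 2 of the 30. With the replicate block Arhgdib alone of the 30 was called (1.21 ± 0.13, adjusted p = 0.000973; 0.808% of all genes positive, 0.033% negative), and with the acinar mean added 5 of the 30 (Arhgdib, Cat, Ldha, Slc16a1 and Zfp36l1; 2.74% and 0.456% of all genes).

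**Figure D3:**
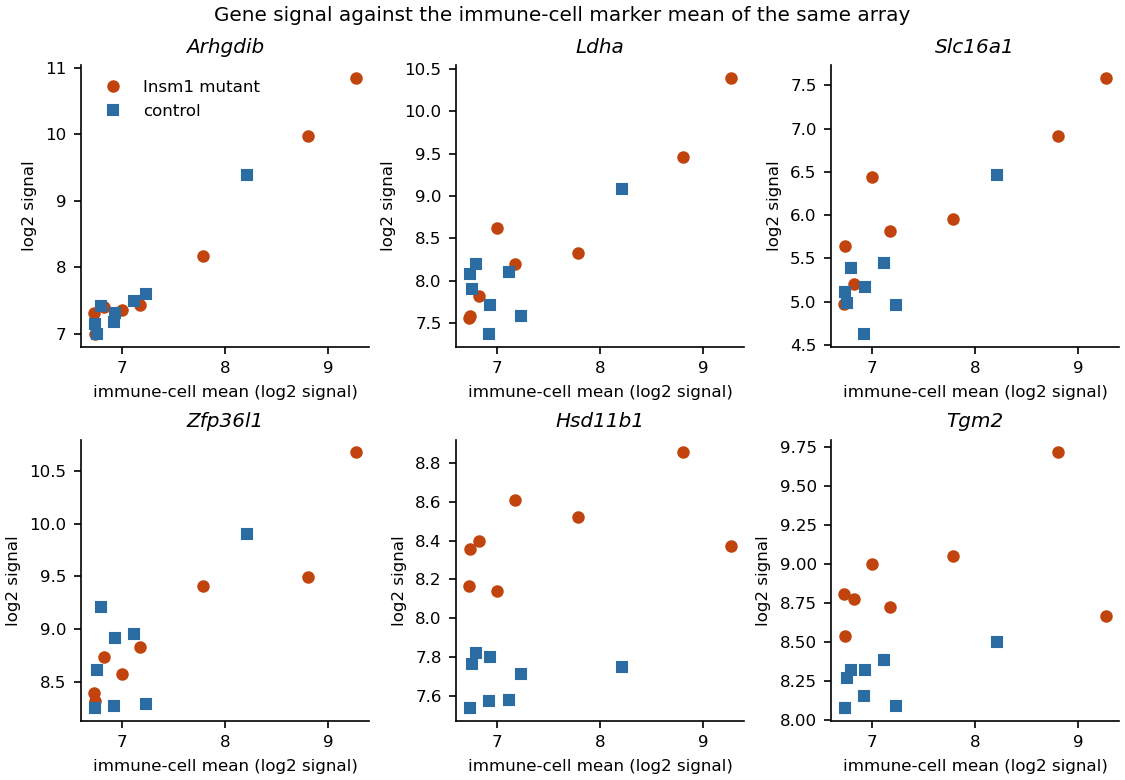
Log2 signal of 6 disallowed genes (vertical axes) against the mean log2 signal of 27 immune-cell markers on the same array (horizontal axes), Insm1 mutant arrays as circles and control arrays as squares. Arhgdib, Ldha, Slc16a1 and Zfp36l1 are highest on the arrays to the right, mutant replicates 1 and 3 and control replicate 1, whereas Hsd11b1 and Tgm2 separate the groups, with all 8 mutants above all 8 controls.

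With the immune-cell mean in the fit, 5 of the 6 genes called for genotype were still called and 0 others were added, where 4.5% of all genes were called higher and 4.49% lower. Hsd11b1 kept a difference of 0.69, Tgm2 0.57, Cd302 0.53, Selenbp1 0.47 and Fcgrt 0.27 (limma adjusted p = 8.41e-05 to 0.021). Pcolce, at 0.49, was just short of the threshold (0.0519). Among the genes with an immune-cell slope, Ldha, Arhgdib, Zfp36l1 and Cat came close to 0. The difference of Ldha was 0.08 in place of 0.49, and those of Arhgdib, Zfp36l1 and Cat were −0.03, −0.09 and −0.04 in place of 0.62, 0.25 and 0.27. Cxcl12 was at 0.29, and Mgst1 and Arap2 lay farther from 0 than without the immune-cell mean, at −0.38 and −0.17. Slc16a1 lay between, at 0.43 with the immune-cell mean, and was called with that mean and the replicate block together (0.56, adjusted p = 0.0103), where 5.69% of all genes were called higher and 7.52% lower. In the arrays without pairs 1 to 3, 6 of the 30 were called higher and 0 lower (2.09% and 2.46% of all genes), namely Hsd11b1, Tgm2, Cd302, Selenbp1, Igfbp4 and Tst, and with the replicate block as well 10 of 30 (4.8% and 6.02%). Ldha differed without these pairs by 0.14 and Arhgdib by 0.02.

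**Figure D4:**
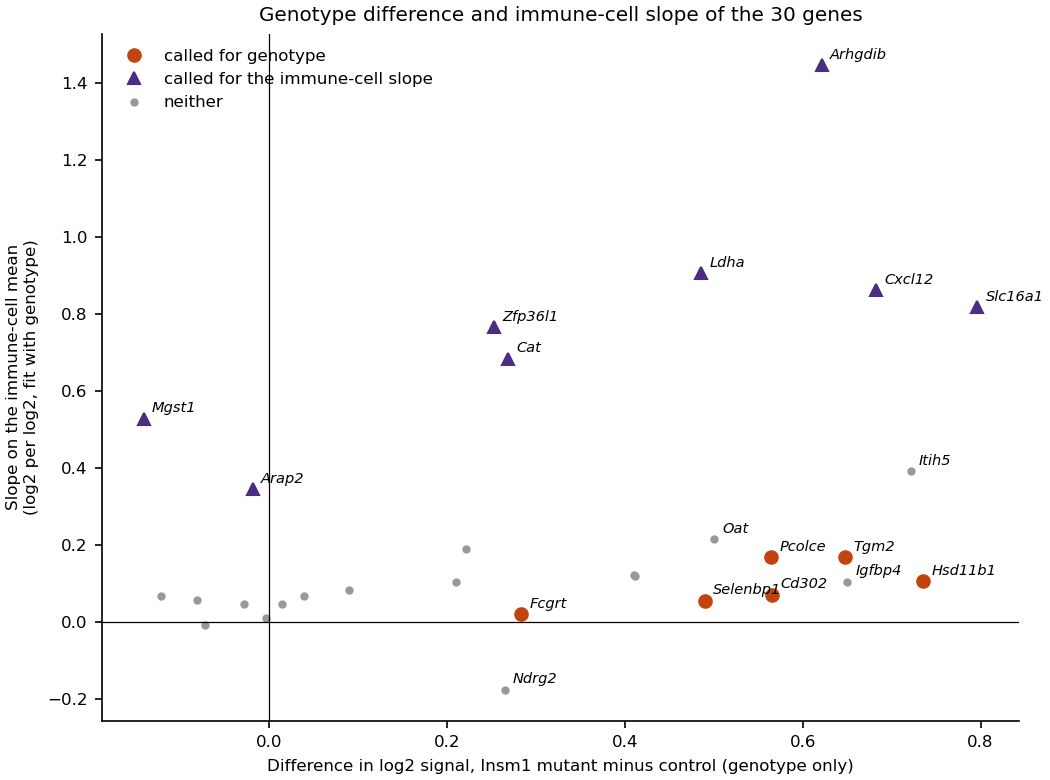
Difference in log2 signal, Insm1 mutant minus control (horizontal), against the slope on the immune-cell mean in a fit with genotype (vertical) for the 30 genes, with circles for genes called for genotype and triangles for genes called for the slope. The 6 circles have slopes of 0.17 or less, and the 8 triangles slopes of 0.35 or more.

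Signals of other cell types were set against the calls as well. Of 14 stromal markers 3 rose (Dcn, Col1a2 and Col6a1, by 1.29, 0.60 and 0.45) and 1, Acta2, fell by 0.98 on the log2 scale, while the list mean differed by 0.26, with 6 of 8 pairs higher (two-sided exact permutation test, adjusted p = 0.0865 over 7 marker lists). With the stromal mean in the fit, Hsd11b1 (0.60), Tgm2 (0.42) and Fcgrt (0.28) were called higher and 0 members lower, where 3.09% and 3.02% of all genes were called. Cd302, Selenbp1 and Pcolce then differed by 0.34, 0.37 and 0.30 (limma adjusted p = 0.0546, 0.0851 and 0.183). Acinar markers averaged 10.87 ± 1.62 in mutants and 12.37 ± 0.89 in controls (SD, n = 8 each; two-sided exact permutation test, adjusted p = 0.0865 over all splits and 0.0273 within pairs), and the acinar mean as a covariate gave 14 of 30 called higher and 0 lower, where 4.71% and 6.71% of all genes were called. Ldha and Slc16a1 were among the 14, with 1.15 and 1.46 (limma adjusted p = 0.0186 and 0.000992). With the replicate block and the acinar mean together 2 of 30 were called, Hsd11b1 and Slc16a1 (2.04% of all genes higher, 1.41% lower), and with the immune-cell mean added to these 0 of 30 (0.033% and 0.0055%). The difference between 3′ and 5′ probe signal, which reflects RNA integrity, was averaged over the control probe sets of Gapdh and beta-actin alone. It was smaller in mutants, in all 8 pairs (0.36 ± 0.06 in mutants and 0.44 ± 0.09 in controls, SD, n = 8 each). With this measure and the replicate block 0 of 30 were called (0.561% and 0.748% of all genes). The differences behind these lost calls varied in size. Hsd11b1 was at 0.60 with the 3′ and 5′ measure and 0.75 with the immune-cell and acinar means (limma adjusted p = 0.0846 and 0.44), whereas Tgm2 was at 0.031 and 0.086 (adjusted p = 0.957 and 0.99). The replicate block with the stromal mean left Hsd11b1 and Tgm2 (4.18% of all genes higher, 4.8% lower). Alpha-cell markers were higher by 0.52 in 8 of 8 pairs (exact permutation test, two-sided, adjusted p = 0.00109), duct markers lower by 0.24 in 7 of 8 (adjusted p = 0.00163) and the mean of 5 lymphatic markers lower by 0.36 in 7 of 8 (adjusted p = 0.147), and the part of these 3 in the rises was not tested. Of the lymphatic markers 1, Lyve1, fell by 2.56, while the median difference of the 5 was −0.02. Of 6 alpha-cell markers 3 rose, among them Dpp10 by 1.47, with a median difference of 0.37. The marker lists were chosen with earlier results of these data known, so permutation tests of their means are no independent support. Of 8 duct markers 1, Krt19, fell by 0.95, with a median difference of −0.17. Endothelial markers, of which 0 of 12 were called, left the 6 calls in place when their mean was added, and Igfbp4 joined them (4.17% of all genes higher, 4.46% lower).

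**Figure D5:**
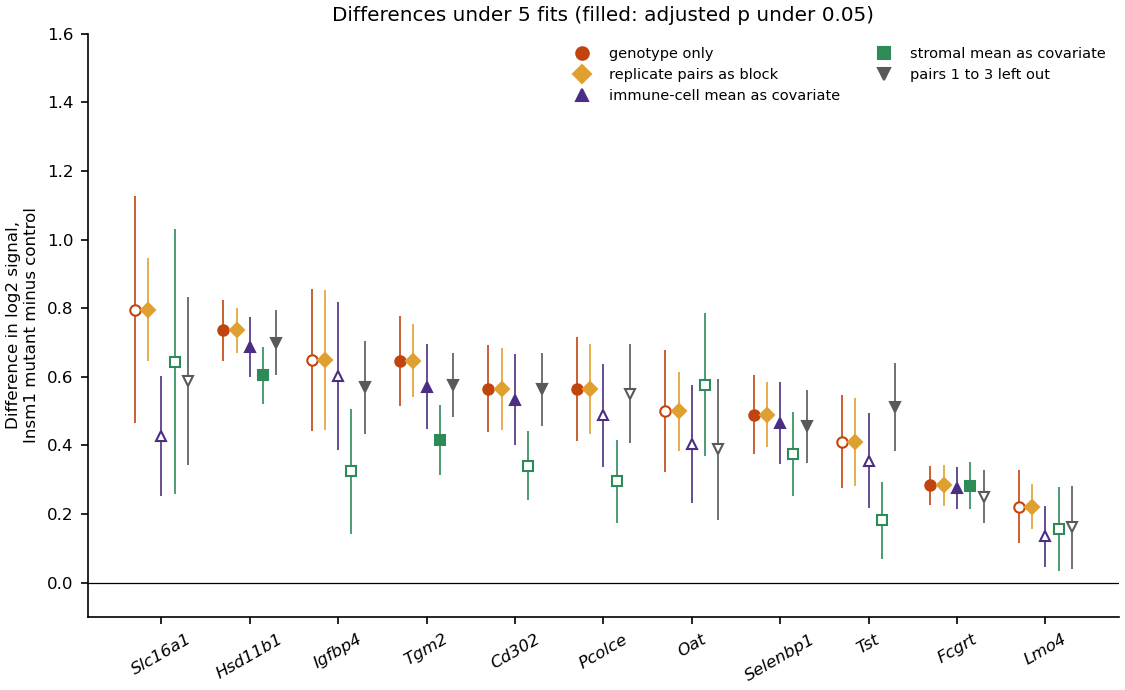
Difference in log2 signal, Insm1 mutant minus control (vertical), for the 11 genes called with the replicate block, under 5 fits marked by shape and colour (genotype only, replicate block, immune-cell mean, stromal mean, pairs 1 to 3 left out), with bars of ± 1 SE and filled symbols where the limma adjusted p was under 0.05. Hsd11b1 and Tgm2 are filled in these 5 fits, though not in some fits that are not plotted, and the squares with the stromal mean as covariate are open for all of the 11 but Hsd11b1, Tgm2 and Fcgrt.

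The genes of 5 further lists were read in the same fit, and with the replicate block their calls, with those of beta-cell identity and the 7 marker lists, came to 63, against 37 without it and 49 with the immune-cell mean. These lists held 186 measured genes. Calls over all genes also rose with the block, to 7.88% higher and 9.71% lower from 4.1% and 4.66%. With the immune-cell mean they were 4.5% and 4.49%. Acinar markers made up 15 of the 63 and 1 of the 37, all lower. Of 8 further genes often counted as low in beta cells, 6 rose and 0 fell, with a median difference of 1.09. Aldh1a3, a retinaldehyde dehydrogenase, was 13.1-fold higher, Mylk, a myosin light chain kinase, 4.07-fold and the TGF-beta signal transducer gene Smad3 2.82-fold (limma adjusted p = 0.000114, 1.44e-10 and 1.87e-09). Several of the 8 were known from earlier results of these data, so their direction is no independent support.

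Of 22 measured genes of pyruvate and lactate handling, 2 rose and 4 fell, with a median difference of −0.01. Pdk4 and Pdk1, kinases that switch off pyruvate dehydrogenase, were 1.89-fold and 1.65-fold higher, each in 8 of 8 pairs (limma adjusted p = 0.0359 and 0.0081). The carboxylase gene Pcx, which feeds pyruvate into the citrate cycle, was 1.5-fold lower (−0.59 ± 0.13, SE, adjusted p = 0.00816). Pdp2, a pyruvate dehydrogenase phosphatase gene, the mitochondrial pyruvate carrier gene Mpc1 and Emb, which encodes an accessory protein of monocarboxylate transporters, fell by 0.38, 0.37 and 0.37 on the log2 scale. With the immune-cell mean in the fit 1 of the 22 was called higher and 2 lower.

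Of 19 antioxidant and detoxifying enzymes 2 rose and 3 fell (median difference 0.04). Gpx3, a secreted glutathione peroxidase, was 3.84-fold higher in 8 of 8 pairs (limma adjusted p = 1.87e-09), while the quinone reductase gene Nqo1 was 1.76-fold and the glutathione reductase gene Gsr 1.22-fold lower (adjusted p = 0.0256 and 0.0209). Among 15 DNA methylation and Polycomb genes 0 rose and 2 fell (median difference 0.10), the methyltransferase gene Dnmt3b by 0.25 and the methyl-CpG-binding gene Mbd2 by 0.20 on the log2 scale (limma adjusted p = 0.0381 and 0.0451). Of 20 ligands, receptors and partners of the secreted and receptor members, 0 rose and 1 fell (median difference −0.02), the platelet-derived growth factor gene Pdgfa by 0.37 (limma adjusted p = 0.00069).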

How the data were processed

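Islet RNA of 8 Insm1 mutant and 8 control mice was measured on Affymetrix Mouse Genome 430 2.0 arrays, from 150 ng total RNA per array, per the labels' protocols. The deposited values are log2 signals per probe set, as their range shows, with nearly equal array medians; the background correction, summarisation and normalisation are not given in the sources used here. No further normalisation was applied. Strong background correction would change the differences of dim probe sets most.

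Of 45101 probe sets, 34945 named 1 gene in the platform annotation, 932 several and 9160 none (64 controls were left out), and 34741 of the 34945 were matched to RefSeq (GRCm38.p6) for current symbols. Each of 18193 genes was represented by its brightest probe set. Genotype was fitted with limma 3.58.1 (R 4.3.3; lmFit, eBayes with a variance trend), with Benjamini-Hochberg adjustment over all genes and a threshold of 0.05. Marker-list means were compared by exact permutation tests (scipy 1.17.1). The labels name 8 separate mice per group, so p-values measure the spread between these preparations.

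The design text says litter-matched and the titles number the arrays, without tying numbers to litters. Deviations from the group means correlated within all 8 same-numbered pairs (0.237 to 0.735, median 0.466, against −0.098 for other numbers), so the numbers were taken as pairs and the replicate block as an alternative. The members and lists, including the other genes kept low in beta cells, were chosen with earlier results of these data known. Named with all values were the members called in either fit, Ldha, Slc16a1 and members whose call or direction changed with the immune-cell mean; from other lists, up to 3 called genes of the largest difference, with further called pyruvate genes named after their values were seen. Pdgfra and the probe sets of Dnmt3a, Maf, Igfbp4, Zyx and Nfib were likewise singled out after their values were seen. On simulated data with 8 arrays per group, 87 of 100 genes changed 1.5-fold and 97 of 100 changed 3-fold were recovered, with 7.07% false calls. Genes were drawn independently there, without the deviations that real arrays share, so these rates need not hold for the real arrays. Alternatives were other scalings, filters, probe-set rules, marker means as covariates and arrays left out.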

Additional observations from a re-analysis of the deposited data

Results flagged for a closer look

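In 7 of 70 groups of 8 arrays 1 array stood apart from the others by Dixon's criterion, which chance meets in about 1 of 20 groups. On mutant replicate 3, Cxcl12 read 10.26 (next highest mutant 7.56) and Tgm2 9.72 (next 9.05). On control replicate 1, Slc16a1 read 6.47 (next highest control 5.44), Arhgdib 9.39 (next 7.59) and the immune-cell mean 8.21 (next 7.24). Zyx had its low value of 6.90 on mutant replicate 5 (next lowest mutant 7.12) and of 6.99 on control replicate 4 (next lowest control 7.10).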

How the results depend on the processing

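The count of 6 members called higher was 5 to 7 with quantile normalisation, median centring, dim genes left out, the mean of all probe sets, every probe set tested, no variance trend, array weights, the immune-cell mean, the replicate block with the immune-cell mean, and the endothelial and Y-linked means (the last 2 added after seeing the data). It was 11 with the replicate block, 14 with the acinar mean, 2 with the replicate block and the acinar mean, 0 with the replicate block and both the immune-cell and acinar means, and 0 with the replicate block and the difference of 3′ and 5′ signal. Added after seeing the data, the stromal mean gave 3, the replicate block with the stromal mean 2 (4.18% of all genes higher, 4.8% lower) and the replicate block without pairs 1 to 3 gave 10 (4.8% and 6.02%). In each of these fits 0 members were called lower, with the fit over every probe set counted by the brightest probe set of each gene. Over all 76 probe sets of the members, that fit called 8 higher and 1 lower (3.24% and 3.62% of all 34945 probe sets). The lower one was a dimmer Dnmt3a probe set, and a dimmer Pdgfra probe set was among the 8. A count near 6 did not always rest on the same genes. The mean of all probe sets lost Pcolce and Selenbp1 and gained Pdgfra. Without dim genes Cd302 was not tested and Igfbp4 was gained. Array weights and the endothelial mean also gained Igfbp4. The immune-cell mean lost Pcolce, and together with the replicate block it lost Pcolce and gained Slc16a1. Leaving out 1 array at a time gave 5 to 7 higher and 0 lower. Differences of called members turned negative, uncalled, in 2 fits: Selenbp1 −0.063, Pcolce −0.26 and Cd302 −0.067 with the replicate block and the immune-cell and acinar means, and Pcolce −0.14 and Cd302 −0.054 with the block and the 3′ and 5′ difference; the cause was not tested. Members that followed the immune-cell signal numbered 8, but 1 with the replicate block, 5 with the acinar mean added, 0 without pairs 1 to 3, and 7 to 11 leaving out 1 array. Without pairs 1 to 3 the slopes of Mgst1 and Arap2 were −0.70 and −0.053. Calls over the other lists came to 63 with the replicate block, against 37. Those over all genes rose as well, to 7.88% higher and 9.71% lower from 4.1% and 4.66%. With the replicate block all 6 calls of the report stood. Dim signal limits Slc16a1, Smoc2, Pdgfra, Maf, Parp3 and Cd302, which lay below the lowest array median.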
